A study of Xenopus laevis with 12 samples.

Results

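Genes of cartilage and of its cells, the chondrocytes, were followed in *Xenopus laevis* embryos raised with or without thioridazine in small or large cohorts. The genes were chosen by symbol. They were all rows whose name without the homeolog suffix .L or .S was sox9, runx2, runx3, acan, hapln1, matn1, matn3 or cnmd. *X. laevis* is allotetraploid, and the suffixes mark the copy of a gene on the long or the short chromosome of a pair. The rule found 14 rows for the 8 symbols among 42638 genes, since acan and runx2 had an L row only.

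RNA came from wild-type whole embryos at stage 35, with 15 tadpoles pooled per library and 3 libraries in each of 4 groups. Control embryos in cohorts of 100 (control small) or 300 (control large) received no drug, and the other cohorts of 100 (thioridazine small) or 300 (thioridazine large) received 90 µM thioridazine, a drug that targets dopamine pathways. Both controls and exposed embryos were kept in dilute Ringer's medium, and at the same temperature during exposure. The exposure window is unsettled. The labels let it run from stage 12.5 up to the stage of collection, while the study's methods end it earlier and add a short recovery. Because each library pools whole tadpoles, fewer cells that express a gene and less RNA per such cell cannot be told apart. Whether differentiated cartilage was present at stage 35 was not tested. Whether replicate pools shared a clutch is not stated in the labels. The study describes a common clutch within each experiment, and its methods describe embryos mixed from separate mothers. How this applies to the replicate pools is unsettled, so the p-values speak only of variation among these pools.

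Libraries held between 4887343 and 7497662 expected counts. A count of 3 in a library corresponded to between 0.400 and 0.622 CPM (the normalised read count, scaled to library size). Along the first principal component of all genes (29.1% of the variance), thioridazine small replicate 1 (63.6) and thioridazine large replicate 2 (47.0) lay farthest from the controls (-38.3 to -22.6), and the other exposed libraries lay between 4.06 and 28.9.

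Cartilage of the tadpole head is built by cells of the cranial neural crest that settle in the pharyngeal arches. In mouse and human the transcription factor Sox9 starts the chondrocyte programme, with Sox5 and Sox6 as partners, and Runx2 and Runx3 drive later chondrocyte maturation, Runx2 also bone formation. The matrix that chondrocytes lay down is a network of type II, IX and XI collagen filled with the proteoglycan aggrecan (acan), which is bound to hyaluronan by link protein (hapln1). Matrilins (matn1, matn3) connect the filaments, and chondromodulin (cnmd) is a membrane protein of chondrocytes that restrains blood vessel growth. None of these genes is limited to cartilage in a whole embryo. Sox9 also acts in neural crest, ear, gut and neural progenitors, Runx3 in sensory neurons and blood cells, and type II collagen in the notochord.

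Depth behind the 8 symbols differed. The sox9 rows were counted deeply in every library (305.79 to 593.02 counts), cnmd.L and cnmd.S intermediate (26.14 to 273.67) and acan.L, matn3, runx2.L and runx3 low (4.83 to 47.75). No transcript lengths were used, so these ranges describe the depth behind each row and do not rank the genes. The 4 rows of hapln1 and matn1 were under the filter of 1.8 CPM in at least 3 libraries and were not tested. hapln1.L had 0 to 4 counts per library and hapln1.S 0 to 7, each with 1 library at 0. matn1.L had 0 to 2 counts and matn1.S 0 to 3, each with 8 of 12 libraries at 0. Over the 6 control and the 6 exposed libraries, hapln1.L summed to 17.99 and 12 counts, hapln1.S to 16.01 and 15, matn1.L to 3 and 2, and matn1.S to 2 and 5. Link protein and matrilin 1 RNA was therefore near or below 3 counts per library at this depth, and no difference between groups could be read from it.

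**Figure D1:**
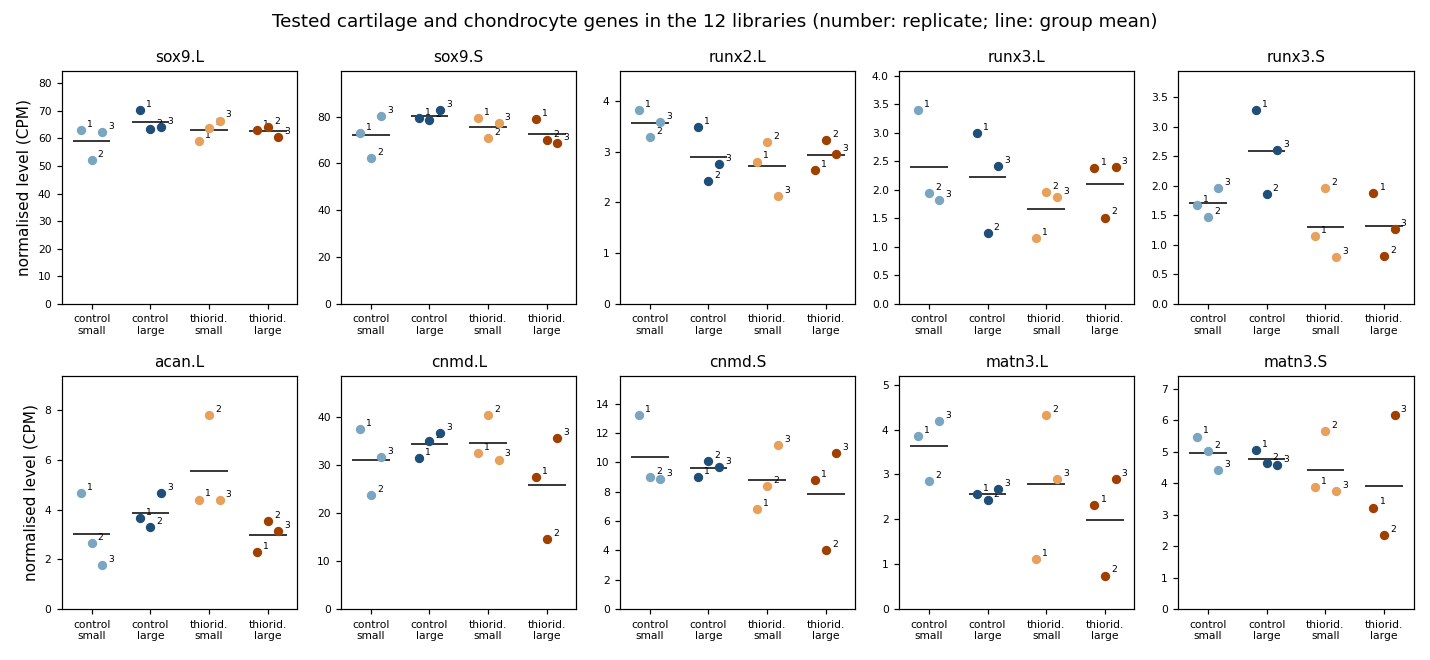
Normalised level (CPM, from 0) of the 10 tested rows in each of the 12 libraries, with the replicate number beside each point and a line at the mean of the 3 libraries of a group. The sox9 rows stayed between 52.2 and 83.0 CPM, and thioridazine large replicate 2 was the lowest library for both cnmd and both matn3 rows.

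sox9 varied least among the 10 tested rows (coefficient of variation 6.93% for sox9.L and 8.09% for sox9.S, against 16.5% or more for the others). sox9.L stood at 63.2, 52.2 and 62.3 CPM in control small, 70.4, 63.4 and 64.3 in control large, 59.2, 63.6 and 66.5 in thioridazine small and 63.0, 64.1 and 60.5 in thioridazine large (replicates 1, 2 and 3). The highest library was 1.35-fold above the lowest, and the control and exposed libraries overlapped. sox9.S stood at 73.1, 62.4 and 80.3 CPM in control small, 79.3, 78.5 and 83.0 in control large, 79.2, 70.7 and 77.2 in thioridazine small and 78.8, 69.9 and 68.7 in thioridazine large. Averaged over cohort sizes, the log2 difference of thioridazine against control was 0.01 ± 0.06 (SE) for sox9.L and -0.03 ± 0.07 for sox9.S. The 95% confidence intervals run from 0.918-fold to 1.10-fold for sox9.L and from 0.887-fold to 1.08-fold for sox9.S. Larger changes of the average in the normalised sox9 level lie outside these intervals, in the fit without covariates. This level is a share of the library and does not give the total RNA per embryo. With both copies summed the interval of the average was 0.908-fold to 1.07-fold. Intervals of single cohort sizes reached further. For sox9.L they were 0.942-fold to 1.22-fold in the small and 0.829-fold to 1.08-fold in the large cohorts. For sox9.S they were 0.922-fold to 1.21-fold in the small and 0.787-fold to 1.04-fold in the large cohorts.

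The share of sox9 counts on the L copy was 42.8% to 47.9% over the 12 libraries, with a median of 45.9%. Shares of the other pairs ranged from 72.6% to 82.8% for cnmd, 22.5% to 48.8% for matn3 and 40.0% to 70.0% for runx3. Shares were not corrected for transcript length. The ranges of the 4 groups overlapped for sox9, cnmd and matn3. For runx3, control large (40.0% to 48.1%) did not overlap the other groups, but its highest library was next to the lowest control small library (48.2%). These shares rest on 5.21 to 24.82 counts per row and library, so no difference between groups was read from them. How often other homeolog pairs separate in this way was not tested.

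runx2.L, which encodes a regulator of chondrocyte maturation, stood at 3.83, 3.29 and 3.59 CPM in control small and at 2.81, 3.19 and 2.14 in thioridazine small. Every exposed small library was lower than every control small library, a separation seen in the same direction in 11.1% of all genes tested. The log2 difference was -0.43 ± 0.25 and did not pass the test (adjusted p = 0.386). In the large cohorts runx2.L was 3.49, 2.42 and 2.76 CPM in controls and 2.64, 3.23 and 2.96 in exposed embryos, and the log2 difference was -0.01 ± 0.26.

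runx3.S had the lowest adjusted p of the 8 symbols for thioridazine. It stood at 1.67, 1.48 and 1.95 CPM in control small, 3.29, 1.87 and 2.61 in control large, 1.15, 1.97 and 0.801 in thioridazine small and 1.88, 0.806 and 1.26 in thioridazine large. In the large cohorts the highest exposed library (1.88 CPM) and the lowest control library (1.87 CPM) were next to each other, and the other exposed libraries were lower than every control. The log2 difference was -1.02 ± 0.39 in the large cohorts (adjusted p = 0.198), -0.47 ± 0.41 in the small cohorts (adjusted p = 0.602) and -0.74 ± 0.29 averaged over cohort sizes (adjusted p = 0.121). None of these passed the test, and the value in the large cohorts was -0.72 without thioridazine large replicate 2 (adjusted p = 0.508). Its homeolog runx3.L stood at 3.41, 1.95 and 1.82 CPM in control small, 2.99, 1.24 and 2.42 in control large, 1.15, 1.97 and 1.87 in thioridazine small and 2.39, 1.52 and 2.40 in thioridazine large, with a log2 difference of -0.28 ± 0.27 averaged over cohort sizes. The 2 lowest exposed libraries of runx3.L were thioridazine small replicate 1 and thioridazine large replicate 2. These are the libraries farthest along the first component. Without both, the log2 difference of runx3.L was -0.084 in the average and 0.11 in the large cohorts, where it was -0.11 with them.

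acan.L, the only row with the aggrecan symbol, was the single row of the 8 symbols with a positive log2 difference of more than 0.5 in any thioridazine comparison. It stood at 4.66, 2.65 and 1.78 CPM in control small, 3.66, 3.32 and 4.66 in control large, 4.41, 7.82 and 4.40 in thioridazine small and 2.28, 3.56 and 3.14 in thioridazine large. Control small replicate 1 was above 2 of the 3 thioridazine small libraries, so these groups overlapped. In the small cohorts the log2 difference of thioridazine against control was 0.88 ± 0.33 (adjusted p = 0.162), and it was 0.58 without thioridazine small replicate 2, the lowest of the values with 1 library left out. In the large cohorts it was -0.39 ± 0.36 (adjusted p = 0.629). The difference between these differences was -1.27 ± 0.49 (adjusted p = 0.537), so acan.L did not pass the test of a thioridazine effect that depends on cohort size. These values rest on 11.8 to 47.75 counts per library.

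Other rows carried an aggrecan product name under a placeholder symbol in the deposited log2 CPM data. They are set beside acan.L because the symbol rule left them out. They were looked up after values had been seen. LOC108713422 (aggrecan core protein, chromosome 1L) stood at 43.7, 50.4 and 49.3 CPM in control small, 49.2, 46.1 and 58.6 in control large, 34.3, 29.4 and 37.4 in thioridazine small and 38.4, 33.8 and 43.6 in thioridazine large. It was lower with thioridazine in the average over cohort sizes by a log2 difference of -0.46 ± 0.09 (adjusted p = 0.00414) and in the small cohorts by -0.50 ± 0.12 (adjusted p = 0.0396). In the large cohorts the log2 difference was -0.41 ± 0.12 and missed the threshold (adjusted p = 0.0862). LOC108712312 (aggrecan core protein-like, chromosome 3S, where acan.L lies on 3L) averaged 3.12 ± 1.01 CPM in control small, 5.80 ± 1.17 in control large, 2.32 ± 1.38 in thioridazine small and 1.96 ± 0.273 in thioridazine large (SD, n = 3). Its average log2 difference was -1.12 ± 0.29 (adjusted p = 0.0271). With 2 surrogate variables in the fit, neither row passed the test (adjusted p = 0.762 and 0.535). With each library left out in turn LOC108713422 was called in all 12 fits of the average and LOC108712312 in 7, with values from -1.33 to -0.75. The calls of LOC108712312 were lost without control small replicate 1, control large replicates 1 and 3 and thioridazine large replicates 2 and 3. Reads that match several of these rows were shared out by the quantification, so the division of reads among them is uncertain. The placeholder rows are linked to aggrecan by product name only. Whether they are copies of the same gene as acan.L was not settled.

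The rows of cnmd and matn3 were lowest in the same library. cnmd.L, the L copy of chondromodulin, stood at 37.6, 23.8 and 31.7 CPM in control small, 31.6, 35.1 and 36.7 in control large, 32.5, 40.6 and 31.2 in thioridazine small and 27.6, 14.5 and 35.8 in thioridazine large. cnmd.S stood at 13.2, 9.02 and 8.88 CPM in control small, 9.02, 10.1 and 9.69 in control large, 6.80, 8.41 and 11.2 in thioridazine small and 8.81, 4.05 and 10.6 in thioridazine large. For both copies thioridazine large replicate 2 was the lowest library, and replicate 3 of the same group was within or above the control large range.

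matn3.L, the L copy of matrilin 3, stood at 3.86, 2.84 and 4.20 CPM in control small, 2.57, 2.42 and 2.67 in control large, 1.12, 4.33 and 2.91 in thioridazine small and 2.32, 0.748 and 2.90 in thioridazine large. matn3.S stood at 5.48, 5.01 and 4.41 CPM in control small, 5.05, 4.63 and 4.59 in control large, 3.86, 5.66 and 3.76 in thioridazine small and 3.23, 2.35 and 6.17 in thioridazine large. Exposed libraries held both the lowest and the highest value of each matn3 copy. The coefficient of variation of matn3.S was 35.1% over the 6 exposed libraries and 8.11% over the 6 controls, and that of matn3.L was 54.9% and 24.0%. In the 4 exposed libraries left without thioridazine small replicate 1 and thioridazine large replicate 2, it was 30.4% for matn3.S and 27.5% for matn3.L.

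None of the 10 tested rows passed the test for thioridazine in either cohort size or in the average. In the small cohorts 4 rows were above 0 and 6 below, with a median log2 difference of -0.20, and 0 of 10 were called where 2.81% of all genes were. In the large cohorts all 10 were below 0, with a median of -0.40, and 0 of 10 were called where 2.24% of all genes were. Averaged over cohort sizes, 8 of 10 were below 0, with a median of -0.25, and 0 of 10 were called where 9.04% of all genes were. The medians over all tested genes were within 0.01 of 0 in each comparison. At an unadjusted p under 0.05, 1 row passed in each of these comparisons (acan.L in the small cohorts, and runx3.S in the large cohorts and in the average) where 18.4%, 16.9% and 23.8% of all genes did. edgeR and DESeq2 also called 0 of the 10.

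The direction in the large cohorts rested in part on single libraries. Without thioridazine large replicate 2, 8 of 10 rows were below 0, and the log2 difference of cnmd.L went from -0.50 ± 0.24 to -0.13, that of cnmd.S from -0.40 to 0.0082 and that of matn3.L from -0.56 to -0.00045. With 2 surrogate variables, 5 of 10 rows were below 0 in the large cohorts, 1 of 10 in the small and 3 of 10 in the average. The standard errors of these rows were also wide. Their median was 0.27 in the small and 0.29 in the large cohorts, against 0.16 for all genes in both, so changes of the size seen here could have been missed at this depth.

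**Figure D2:**
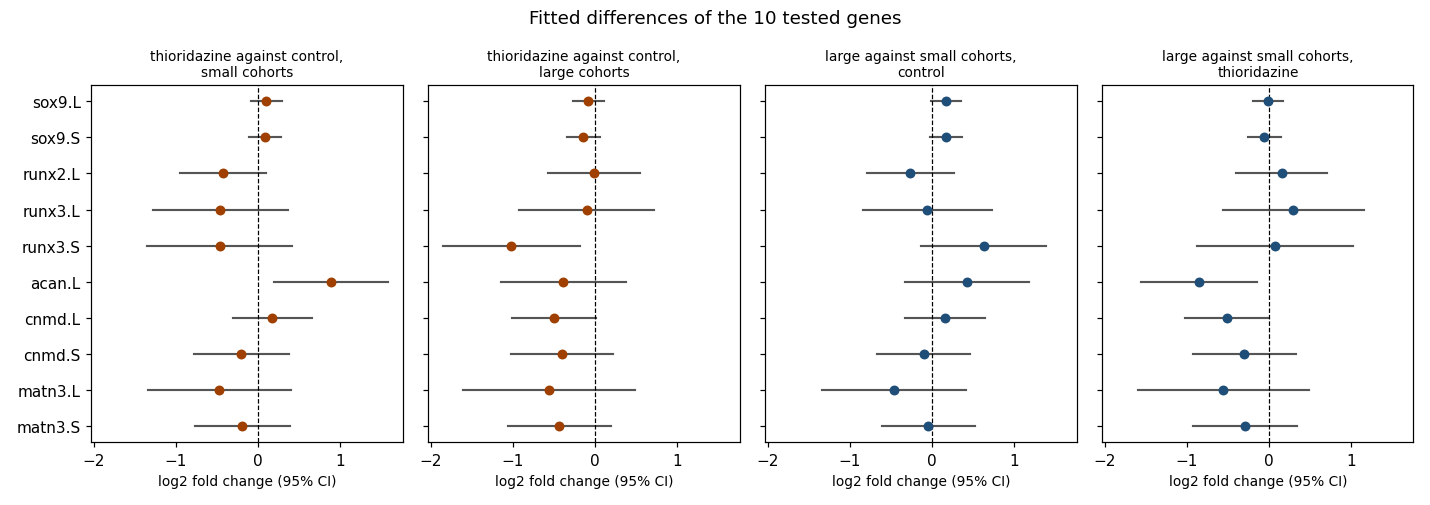
Fitted log2 difference (point) and 95% confidence interval (line) of the 10 tested rows in 4 comparisons, with a dashed line at 0. The 2 sox9 rows have the narrowest intervals, all 10 points lie below 0 for thioridazine in the large cohorts, and none of the 40 differences passed the test after adjustment over all genes.

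Cohort size was compared within each treatment to ask whether these genes differed between embryos raised in groups of 300 and of 100. In controls 5 rows were above 0 and 5 below, with a median log2 difference of 0.06, and 0 of 10 were called where 0.125% of all genes were. sox9.L was higher in every control large library (63.4 to 70.4 CPM) than in every control small library (52.2 to 63.2), and matn3.L was lower in every control large library (2.42 to 2.67) than in every control small library (2.84 to 4.20). Over all genes, 8.45% were separated in the first direction and 7.59% in the second, and neither row passed the test (adjusted p = 0.626 for sox9.L and 0.808 for matn3.L). No row of the 10 was under 0.05 before adjustment in controls, where 8.75% of all genes were.

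In exposed embryos 7 of 10 rows were lower in the large cohorts, with a median log2 difference of -0.18, and 0 of 10 were called where 0.0744% of all genes were. acan.L was lower in every thioridazine large library (2.28 to 3.56 CPM) than in every thioridazine small library (4.40 to 7.82), a separation seen in that direction in 5.27% of all genes. Its log2 difference was -0.85 ± 0.33 (adjusted p = 0.663). cnmd.L differed by -0.51 ± 0.24 (adjusted p = 0.720), and by -0.15 without thioridazine large replicate 2. These 2 rows were under 0.05 before adjustment, as were 6.92% of all genes. This comparison and the thioridazine comparisons share the exposed libraries, so the acan.L values above are not independent of each other. The interaction of thioridazine and cohort size called 0 of 10 rows where 0.0196% of all genes were called, and acan.L alone was under 0.05 before adjustment (7.74% of all genes).

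cnmd and matn3 copies varied together from library to library, also inside groups. Over the 12 libraries the Pearson correlation of log2 CPM ranged from 0.72 to 0.81 over the 6 pairs among the 4 rows, and from 0.66 to 0.81 after each group's mean was subtracted. Without thioridazine large replicate 2 the within-group values ranged from 0.27 to 0.60, without both far libraries from -0.066 to 0.86, and in the 6 control libraries from -0.29 to 0.79, so the pairs agreed less evenly without that library. The sox9 rows did not follow them (-0.35 to 0.25 within groups over 8 pairs). With the mean profile of the 4 rows, the within-group correlation was 0.58 for runx3.L and 0.48 for runx3.S. It was 0.18 for acan.L and -0.069 for runx2.L. All points share library depth and normalisation, and the values are a description.

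**Figure D3:**
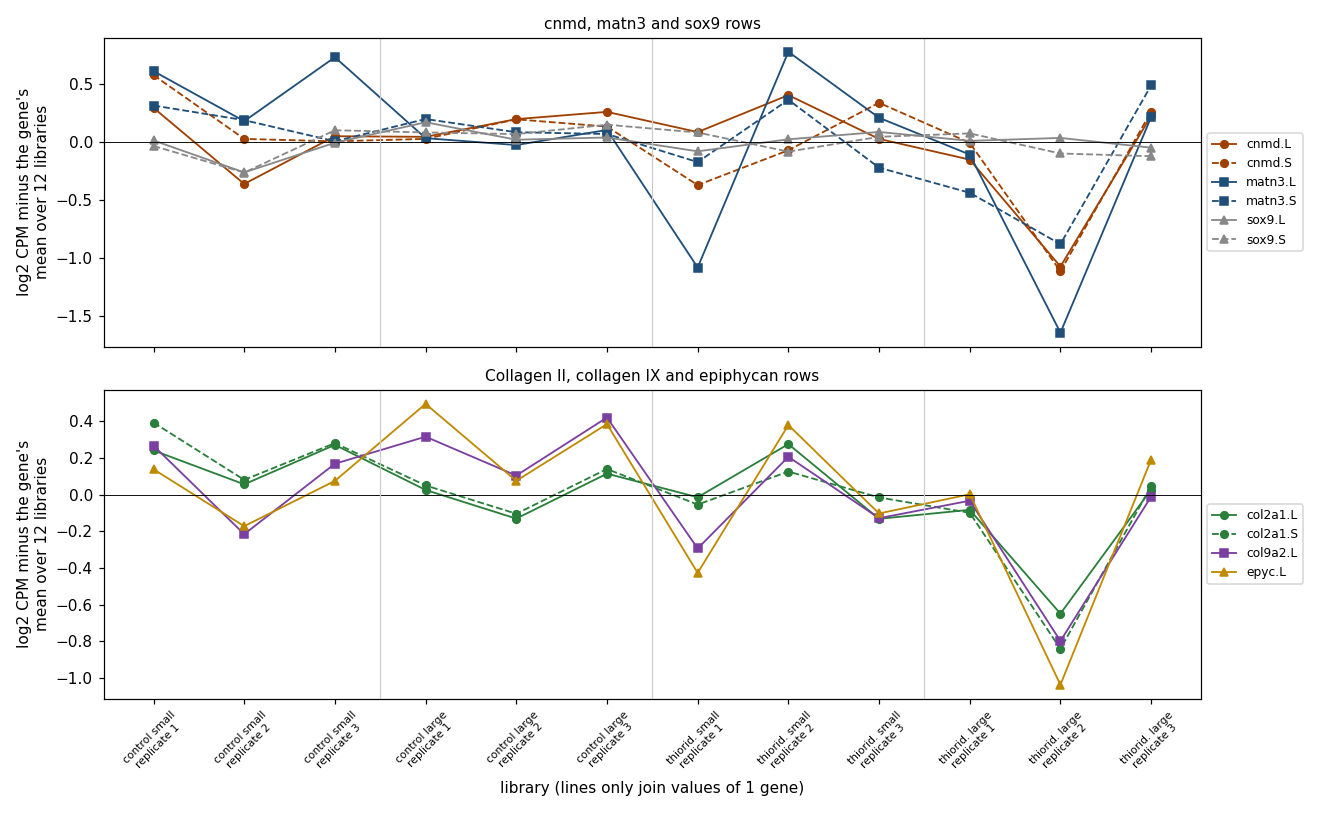
Level of cnmd, matn3 and sox9 rows (upper panel) and of type II collagen, type IX collagen and epiphycan rows (lower panel) in the 12 libraries, as log2 CPM minus the mean of each gene. Thioridazine large replicate 2 is the lowest library for every row drawn except those of sox9, and thioridazine small replicate 1 is low for matn3.L, col9a2.L and epyc.L.

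Other genes of the cartilage matrix followed the pattern of cnmd and matn3. The rows of both genes were grouped after their values had been seen, so the shares below are a description and no test. Of 36 tested rows for other matrix proteins of cartilage, 20 had a within-group correlation over 0.5 with the mean cnmd and matn3 profile (55.6%, median 0.67), against 11.4% of all tested genes (median 0.0027). The rows included col2a1.S (0.93) and col2a1.L (0.85), which encode type II collagen, col9a2.S (0.89) and col9a2.L (0.88) of type IX collagen, epyc.L (0.92, epiphycan) and col11a1.S (0.83) of type XI collagen. The share over 0.5 was 47.2% without thioridazine large replicate 2 (2816 of 25549 genes) and 47.2% without both far libraries (13.5%). It was 44.4% in the 6 controls (21.2%). Over all 12 libraries the regulators of cartilage had 4 of 40 rows over 0.5, genes of the pharyngeal arches and cranial neural crest 4 of 51, sugar chain and sulfate enzymes 6 of 39 and bone genes 5 of 15. The bone share was 60% without thioridazine large replicate 2, 53.3% without both far libraries and 66.7% in the 6 controls. Each was above the cartilage matrix share in the same libraries, so the pattern was not particular to cartilage matrix.

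Type II collagen also lies in the notochord and sox9 in the ear, so markers of these tissues were read beside the pattern. Of 23 notochord markers 5 were over 0.5 (median -0.0049), with emilin3.S highest at 0.93. Others ran the opposite way, among them sstr5.L (-0.92), foxa2.L (-0.78) and tbxt.S (-0.66). Of 13 otic vesicle markers 1 was over 0.5 (median 0.05). The summed level of the notochord markers was 1280 to 1487 CPM in control small, 1395 to 1465 in control large, 1362 to 1552 in thioridazine small and 1421 to 1552 in thioridazine large. None of the notochord rows was at 0 in all 12 libraries. For the average thioridazine effect 4 of the 23 were at an unadjusted p under 0.05 in limma, where 23.8% of all genes were. After adjustment limma called 0 of the 23, where 9.04% of all genes were called, and DESeq2 called 0. The 2 nearest were spon1.L (log2 difference -0.40 ± 0.12, adjusted p = 0.0509) and cav1.L (-0.37 ± 0.11, adjusted p = 0.0563), and edgeR and the filter at 5 CPM called both as lower. From 0 to 2 notochord rows were called with single libraries left out, 2 of them without thioridazine small replicate 2. Broad tissue markers had 5 of 16 rows over 0.5, and their part in the pattern was not tested.

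By the mean profile of the 10 tested rows over the 12 libraries, the genes outside the 8 symbols with the most similar pattern were col9a2.L (Pearson r 0.95), epyc.L (0.93), col9a1-b (0.92, type IX collagen), sdha.S (0.92, a subunit of succinate dehydrogenase) and slc8a1.S (0.92, a sodium and calcium exchanger). Within groups their correlations were 0.95, 0.91, 0.90, 0.92 and 0.93. Over the 10 libraries without thioridazine small replicate 1 and thioridazine large replicate 2, with the profile recomputed, r was 0.85, 0.78, 0.82, 0.85 and 0.93, and only slc8a1.S was still among the 5 most similar genes. The profile was lowest in thioridazine large replicate 2 (mean z-score -1.25) and highest in control small replicate 1 (0.75). Single rows followed their own mean between 0.84 (cnmd.L) and 0.26 (runx2.L).

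**Figure D4:**
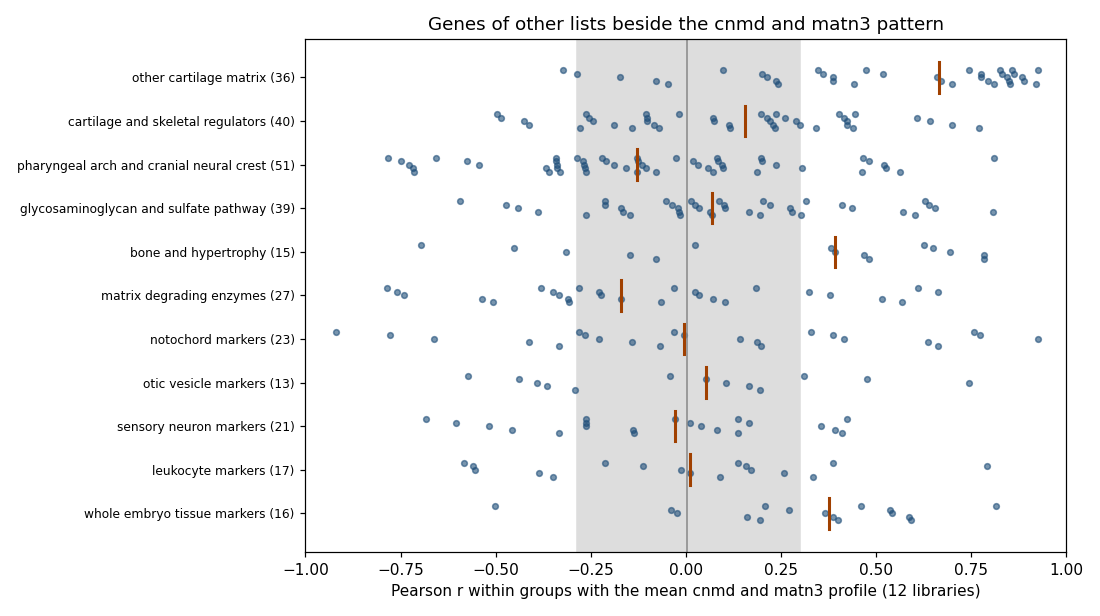
Within-group Pearson correlation with the mean cnmd and matn3 profile over 12 libraries, for each tested gene of 11 lists (point; number of genes in brackets) and the median of the list (bar). The grey band spans the interquartile range of all tested genes (-0.29 to 0.30). Above it lie the medians of other cartilage matrix (0.67), bone and hypertrophy (0.39) and whole embryo tissue markers (0.38). For whole embryo tissue markers the median was -0.037 without thioridazine small replicate 1 and thioridazine large replicate 2.

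Among other cartilage matrix genes some rows passed the test for thioridazine. Averaged over cohort sizes, 30 of 36 were below 0 (median log2 difference -0.21), 5 fell and 0 rose, where 5.14% of all genes fell and 3.9% rose. cilp.S, cartilage intermediate layer protein, stood at 16.5, 15.5 and 18.4 CPM in control small, 21.3, 25.2 and 20.6 in control large, 11.3, 14.8 and 12.7 in thioridazine small and 13.7, 7.36 and 13.1 in thioridazine large. All exposed libraries were below all controls, and the log2 difference was -0.69 ± 0.13 (adjusted p = 0.00484). The share of all genes separated in this way is not given here, so the separation is not read as unusual. The others called in the average were col11a1.L (-0.37 ± 0.10, adjusted p = 0.0291), chadl.L (-0.49 ± 0.14, adjusted p = 0.0397, a chondroadherin relative), col11a1.S (-0.33 ± 0.10, adjusted p = 0.0434) and dcn.S (-0.31 ± 0.09, adjusted p = 0.0486, decorin). The count of 5 was 1 with both far libraries left out and 0 with 2 surrogate variables, and it ranged from 1 to 6 with single libraries left out. It was 1 without control small replicate 1, control large replicate 3, thioridazine small replicate 1 or thioridazine large replicate 2, 2 when control small replicate 3 was omitted, and 3 when the omitted library was control large replicate 1, thioridazine small replicate 3 or thioridazine large replicate 3. cilp.S was called in all 12 of these fits, col11a1.L in 7, col11a1.S in 5, chadl.L in 4 and dcn.S in 3. The other copies cilp.L and dcn.L were tested and not called in the average. The summed level of the list was 3618 to 4338 CPM in control small, 3677 to 4325 in control large, 3338 to 4178 in thioridazine small and 2496 to 3622 in thioridazine large. The small cohorts overlapped. In the large cohorts the highest exposed library (3622 CPM) lay just below the lowest control library (3677 CPM), and the summed level was not tested.

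Partners and regulators of sox9 and the runx genes gave calls in both directions. Of 40 tested rows 4 rose and 1 fell in the average thioridazine comparison, where 3.9% of all genes rose and 5.14% fell. runx1.L, the third runx gene and also a gene of blood and sensory neurons, averaged 7.57 ± 0.456 CPM in control small, 9.95 ± 1.61 in control large, 23.3 ± 11.1 in thioridazine small and 14.1 ± 1.48 in thioridazine large (SD, n = 3). Its average log2 difference was 0.95 ± 0.22 (adjusted p = 0.0145). The row was called in the small cohorts (1.43 ± 0.31, adjusted p = 0.0228) and not in the large (0.47 ± 0.32, adjusted p = 0.486). In the average, cbfb.L, the shared partner subunit of the runx proteins, rose by 0.41 ± 0.10 (adjusted p = 0.0196), bmp4.L, a bone morphogenetic protein, by 0.40 ± 0.10 (adjusted p = 0.0184) and creb3l2.S, a regulator of secretion in chondrocytes, by 0.31 ± 0.07 (adjusted p = 0.0159). cbfb.L was called in the large cohorts (0.59 ± 0.15, adjusted p = 0.0471) and not in the small (0.23 ± 0.14, adjusted p = 0.417). sox6.S, a partner of Sox9, fell by 0.25 ± 0.06 on the log2 scale (adjusted p = 0.0261). With 2 surrogate variables none of these 5 passed, and without both far libraries 1 of the list was called. With each library left out in turn sox6.S was called in 6 of 12 fits and the other 4 in all 12. The sox6.S call was lost without control small replicate 3, control large replicate 1 or 3, thioridazine small replicate 1 or thioridazine large replicate 2 or 3. The other copies cbfb.S, bmp4.S and creb3l2.L were tested and not called in the average. Nor were the rows of the other Sox9 partner, sox5.L (-0.12 ± 0.08, adjusted p = 0.395) and sox5.S (-0.12 ± 0.05, adjusted p = 0.173).

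runx1 and runx3 are active in blood cells and sensory neurons as well, so these markers were set beside them. Of 17 tested leukocyte markers 15 were above 0 and 2 rose, lcp1.L (0.43 ± 0.12, adjusted p = 0.0391) and ptprc.L (0.48 ± 0.14, adjusted p = 0.0413), where 3.9% of all genes rose. The other copy lcp1.S was tested and not called. The count of 2 was 0 with 2 surrogate variables or 1 and with no filter beyond 1 count, and 1 with the replicate block or DESeq2. With single libraries left out it was 0 to 3, and it was 0 without control small replicate 1 or 3, control large replicate 2 or 3, thioridazine small replicate 2 or thioridazine large replicate 1. The summed leukocyte level was 344 to 425 CPM in control small, 344 to 468 in control large, 332 to 445 in thioridazine small and 389.7 to 479 in thioridazine large. Of 21 tested sensory neuron markers 16 were below 0. The only one called was runx1.L, where 9.04% of all genes were called. runx1 is itself on this list, so its call gives no separate reading of these cells. The summed level of the sensory neuron markers was 405 to 425 CPM in control small, 375 to 402 in control large, 354 to 421 in thioridazine small and 373 to 405 in thioridazine large. No leukocyte or sensory neuron row was at 0 in all 12 libraries, and the part of these cells in the runx values was not tested.

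Genes upstream and downstream of the matrix gave few calls outside bone and proteolysis. Of 51 pharyngeal arch and cranial neural crest rows, jag1.L, a Notch ligand, rose (0.24 ± 0.07, adjusted p = 0.0444) and tfap2b.L, a neural crest transcription factor, fell (-0.22 ± 0.06, adjusted p = 0.0353). Of 39 rows for sugar chain and sulfate enzymes, papss2.L, which makes the sulfate donor, rose (0.48 ± 0.13, adjusted p = 0.0367) and chst11.S, a chondroitin sulfotransferase, fell (-0.54 ± 0.16, adjusted p = 0.0436). Both shares were below the 9.04% of all genes called in this comparison. None of the 4 passed with 2 surrogate variables. With each library left out in turn tfap2b.L was called in 5 of 12 fits, papss2.L and chst11.S in 4 each and jag1.L in 3, and all 4 calls were lost without control large replicate 1 or 3, control small replicate 3 or thioridazine large replicate 2. The other copies jag1.S, tfap2b.S, papss2.S and chst11.L were tested and not called in the average.

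Of 15 tested bone and hypertrophy rows 7 fell and 2 rose, where 5.14% of all genes fell and 3.9% rose. postn.S (periostin) fell by 0.37 ± 0.06 on the log2 scale (adjusted p = 0.000941), sparc.L by 0.24 ± 0.05 (adjusted p = 0.00453), col1a2.S by 0.68 ± 0.13 (adjusted p = 0.00462) and col1a1.L, type I collagen, by 0.54 ± 0.11 (adjusted p = 0.00629). Those named are matrix genes of skin and connective tissue as well as of bone. Of 27 matrix degrading rows 4 rose and 0 fell (3.9% and 5.14% of all genes), with adamts1.S at 0.57 ± 0.10 (adjusted p = 0.00196) and adamts1.L at 0.56 ± 0.12 (adjusted p = 0.00798), copies of a protease that cleaves aggrecan. mmp1.L and mmp1.S, collagenase rows, rose by 3.98 ± 1.11 (adjusted p = 0.0353) and 2.74 ± 0.82 (adjusted p = 0.0474). With each library left out in turn the adamts1 rows were called in all 12 fits, mmp1.L in 6 and mmp1.S in 4. Both mmp1 calls were lost without control small replicate 1 or 3, any 1 of the control large libraries or thioridazine large replicate 2. With 2 surrogate variables none of the bone or matrix degrading rows was called.

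Markers of other tissues of the embryo moved too. Of 16 tested rows 7 fell (5.14% of all genes), among them tubb2b.S of neurons (-0.55 ± 0.05, adjusted p = 1.51e-05) and rho.L of photoreceptors (-2.60 ± 0.32, adjusted p = 0.000229), and nphs1.S of the kidney rose (0.70 ± 0.16, adjusted p = 0.0139). Of 13 otic markers oc90.S fell (-0.29 ± 0.08, adjusted p = 0.0469). With 2 surrogate variables or 1, none of either list was called, and no otic row was called with the replicate block, with DESeq2 or in 10 of 12 fits with 1 library left out. Their part in the matrix values was not tested.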

How the data were processed

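RNA was measured in 12 whole-embryo libraries (4 groups of 3), made with a stranded kit after depletion of ribosomal RNA and read from one end. According to the labels and methods, the authors trimmed reads with fastp, handled ribosomal reads with Bowtie2, aligned with STAR and quantified with RSEM. Tool versions, strand setting and the build behind the counts: not given in the sources used here. Deposited were RSEM expected counts (estimated read numbers per gene, unscaled) for 42638 genes (non-integer in 32.6% of entries). The authors also deposited log2 CPM values for 26050 genes, which voom recomputed from the counts to within 4.97e-14, so no batch or surrogate variable had been removed from them. Floors cover counting error only.

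Rows had to exceed 1.8 CPM in 3 or more libraries, which left 25553. The methods state this filter with another number of genes. TMM scaling (edgeR 4.0.16), voom weights and empirical Bayes in limma 3.58.1 (R 4.3.3) were applied to all 12 libraries with no covariate. A batch named in the methods is absent from the labels, and the 2 surrogate variables of the methods are tied there to the principal component plot. The first of these variables (sva 3.50.0) lay 67.9% between treatments and the second 0.0685%. Because of the first, both were used only as an alternative. This choice was made with earlier results of these data known. Adjusted p-values are two-sided Benjamini-Hochberg values from limma over all genes, called under 0.05. Levels are TMM-scaled CPM with no pseudocount.

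The fit was also run on simulated counts. Their changes were larger than most of those reported here, and no library was simulated as an outlier. The run therefore does not show how well smaller changes are found. Replicate libraries differed by more than counting noise (chi-square per degree of freedom 2.33 to 5.39 over 12 pairs). Chromosomes came from RefSeq (Xenopus_laevis_v10.1), which held 94.0% of identifiers. Product names were those deposited with the log2 CPM values. The genes and lists were chosen with earlier results of these data known. All rows of the 8 symbols were named. Of the other lists, up to 4 called rows by smallest p were named, the 2 nearest where none was called, and the 5 rows most like the mean profile. Rows named beyond this were chosen after their values were seen. They were dcn.S, sox6.S and the placeholder rows with an aggrecan product name. In the correlation text they were the collagen, epiphycan, emilin3, spon1, cav1.S, sstr5.L, foxa2.L and tbxt.S rows. The grouping of the cnmd and matn3 rows into a mean profile was also chosen after their values were seen. Alternatives were edgeR, DESeq2 1.42.0, RLE scaling, other filters, quality weights, surrogate variables, a replicate block, the deposited log2 table, summed homeologs and libraries left out.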

Additional observations from a re-analysis of the deposited data

How the results depend on the processing

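No row of the 8 symbols was called in the comparisons that each of 24 alternatives could give, nor were the 6 symbols tested with homeologs summed (the 6 compared libraries alone give no average and no interaction; 1388 fits of single rows, lowest adjusted p 0.0803, for runx3.S in the average thioridazine comparison without thioridazine small replicate 2), and 75 of these fits changed sign. DESeq2 gave no adjusted p for 6 of the rows (acan.L, matn3, runx2.L and runx3) for cohort size in controls. The filter at 5 CPM left 5 of the 10 rows. Depth limits the low rows most.

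Over all genes, the count called for thioridazine was 718 in the small cohorts, 573 in the large and 2310 in the average. With 2 surrogate variables it was 41, 57 and 64, with 1 it was 26, 42 and 29, and with both far libraries left out 396, 282 and 1162. It was 322 in the small cohorts with only the 6 compared libraries, and 373 with no filter beyond 1 count and 877 with quality weights in the large cohorts. With single libraries left out it ranged from 245 to 1209, from 139 to 758 and from 1459 to 2730. For cohort size in controls the count of 32 became 75 and 60 with 2 and 1 surrogate variables, 12 with the replicate block, 7 with edgeR, 115 with DESeq2, 6 with no filter, 67 with quality weights, 18 on the deposited table, 59 without both far libraries, 154 with the 6 compared libraries and 0 to 45 with single libraries left out. In exposed embryos the 19 became 48 with DESeq2, 0 without both far libraries, 4 with the 6 compared libraries and 0 to 48 with single libraries left out. The 5 interaction calls became 19 and 23 with 2 and 1 surrogate variables, 9 with the replicate block, 24 with edgeR, 55 with DESeq2, 11 with no filter, 14 at 5 CPM, 23 on the deposited table, 0 without both far libraries and 2 to 42 with single libraries left out.

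The replicate numbers of the titles gave no sign of pairing (same-number correlations -0.15 to 0.10, median -0.024, against -0.13 to 0.17 for different numbers). With 3 libraries per group this does not settle whether pools of the same number shared an origin. The replicate block turned matn3.L in the interaction to 0.024 on the log2 scale and changed no call of the 8 symbols. The block left 2 of the 5 called cartilage matrix rows.

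Log2 differences that changed sign were these. For thioridazine in the small cohorts with 2 and 1 surrogate variables, cnmd.S was 0.49 and 0.66, matn3.L 1.14 and 1.18, matn3.S 0.15 and 0.23, runx3.L 0.033 and 0.22 and runx3.S 0.10 and 0.13. In the large cohorts cnmd.S was 0.40 and 0.38, matn3.L 0.88 and 0.83 and runx3.L 0.48 and 0.46, and with 2 variables cnmd.L was 0.13 and matn3.S 0.056. In the average cnmd.L was 0.35 and 0.35, cnmd.S 0.45 and 0.52, matn3.L 1.01 and 1.00, matn3.S 0.10 and 0.086, runx3.L 0.26 and 0.34, chadl.L 0.0050 and 0.034, col11a1.S 0.057 and 0.088, tfap2b.L 0.040 and 0.049 and jag1.L -0.022 and -0.036. For cohort size cnmd.L was -0.071 in controls with 2 variables, and runx3.S in exposed embryos -0.053 and -0.058. DESeq2 gave 0.0031 for runx2.L (thioridazine, large cohorts), -0.0052 for runx3.S (cohort size, exposed) and 0.014 for matn3.L (interaction), where edgeR gave 0.0023 and quality weights 0.085. The deposited table gave 0.031 for runx2.L in the large cohorts. Without both far libraries cnmd.S was 0.0036 and runx3.L 0.11 for thioridazine in the large cohorts, cnmd.L 0.033 in the average, and cnmd.S 0.066 and matn3.L 0.039 in the interaction. The cause of these moves was not tested.

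With single libraries left out, log2 differences whose range crossed 0 were, for thioridazine in the small cohorts, cnmd.L (-0.0075 to 0.33) and sox9.S (-0.019 to 0.16), in the large cohorts cnmd.S (-0.64 to 0.0082), runx2.L (-0.11 to 0.16) and runx3.L (-0.40 to 0.19), and in the average cnmd.L (-0.29 to 0.020), sox9.L (-0.037 to 0.034) and sox9.S (-0.083 to 0.0069). For cohort size in controls they were cnmd.L (-0.019 to 0.32), cnmd.S (-0.20 to 0.089), matn3.S (-0.13 to 0.027) and runx3.L (-0.36 to 0.24), and in exposed embryos cnmd.S (-0.54 to 0.11), matn3.L (-0.99 to 0.0065), runx2.L (-0.046 to 0.28), runx3.S (-0.28 to 0.40) and sox9.L (-0.057 to 0.026). In the interaction they were cnmd.S (-0.44 to 0.21), matn3.L (-0.52 to 0.47) and matn3.S (-0.58 to 0.043).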
